A study of Homo sapiens with 4 samples.

Results

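Interferon-high cells were picked out of cultures of human microglia-like cells by the summed UMIs (unique molecular identifiers, each standing for 1 captured mRNA molecule) of 10 interferon-induced genes: IFIT1, IFIT2, IFIT3, RSAD2, MX1, MX2, IFI44L, OASL, USP18 and CMPK2. A cell was a member when these genes together held at least 5 of every 10000 of its UMIs. Of the 16937 cells kept, 329 met the rule, 176 of 9081 in library 1 and 153 of 7856 in library 2. The other 16608 cells of the same cultures served as the comparison.

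The starting material was the human embryonic stem cell line H9, an established line, carried through monocyte-like cells that were harvested on day 25 and then kept for 7 days in TIC, a serum-free medium for microglia. Every group therefore shared 1 line, 1 harvest day and 1 medium. The 4 conditions had 3 cultures each: Ctrl received the vehicles DMSO and PBS, Sema received 2 µM semagacestat (an inhibitor of γ-secretase, the protease that cleaves Notch and the amyloid precursor protein) for 22 h with PBS, LPS received DMSO with 200 ng/mL lipopolysaccharide for the last 6 h, and SemaLPS received both agents. The cultures were detached with Accutase in the presence of the transcription inhibitor actinomycin D at 5 µM, labelled with 1 hashtag antibody each, pooled at about 2000 cells per culture and split over 2 droplet libraries. No label says whether the 3 cultures of a condition came from separate differentiations, so the p-values below measure the spread between these cultures only.

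Interferons of type I are secreted proteins that bind the receptor pair IFNAR1 and IFNAR2. The kinases JAK1 and TYK2 then activate transcription factors, STAT2 and IRF9 among them, that bind a short promoter element, the interferon-stimulated response element, in front of genes that block viral entry, translation and replication. Microglia hold a small subset of cells with this programme in the brain, and LPS can start it through TLR4, which induces interferon β beside the NF-κB cytokines.

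The element is printed here because matches to it were more frequent before the genes that were high in these cells than before other genes. Capitals mark every match to GAAANNGAAA or, on the other strand, TTTCNNTTTC, in the 50-base stretch shown around the match nearest to the RefSeq start of the gene (assembly GRCh38.p14), within the 250 bases before that start. IFIT1 has 2 matches in its stretch and ISG15 has 2 that overlap. Each stretch is written 5′ to 3′ along the gene's own strand. IFIT1, IFIT3 and IFI44L are genes of the rule, and the others are the ubiquitin-like modifier ISG15, the ISG15 ligase HERC5, the chemokine CXCL10 and the death ligand TNFSF10 (TRAIL), which the rule did not use. The stretches lie at chr10:89392500-89392549 (plus strand) for IFIT1, chr10:89327855-89327904 (plus) for IFIT3, chr1:78620355-78620404 (plus) for IFI44L, chr1:1013370-1013419 (plus) for ISG15, chr4:88457025-88457074 (plus) for HERC5, chr4:76023689-76023738 (minus) for CXCL10 and chr3:172523588-172523637 (minus) for TNFSF10.
IFIT1: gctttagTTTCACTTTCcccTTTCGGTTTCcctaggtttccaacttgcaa
IFIT3: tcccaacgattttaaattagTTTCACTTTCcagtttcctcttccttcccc
IFI44L: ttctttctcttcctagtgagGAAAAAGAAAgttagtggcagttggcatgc
ISG15: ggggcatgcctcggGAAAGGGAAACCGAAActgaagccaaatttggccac
HERC5: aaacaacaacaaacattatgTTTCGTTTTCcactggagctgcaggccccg
CXCL10: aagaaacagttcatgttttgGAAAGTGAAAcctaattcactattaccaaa
TNFSF10: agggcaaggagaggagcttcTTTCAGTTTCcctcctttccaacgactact
Counted to the nearest match, the motif began 73 bases before the start of IFI44L, 74 before HERC5, 103 before IFIT1, 107 before ISG15, 122 before IFIT3, 187 before TNFSF10 and 221 before CXCL10. Of the 10 rule genes, 6 had an entry in the promoter table and 3 of them held the motif. Across all 27305 promoters of the table, 839 (3.07%) held it, and a match is a description of these letters only.

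Markers of microglia did not set the members apart from the other cells. The 8 markers (C1QA, C1QB, C1QC, TREM2, CSF1R, AIF1, TYROBP and CD68) had log2 fold changes of -0.13 to 0.16 without LPS and -0.03 to 0.16 with LPS, with 0 of 8 called at either level (lowest adjusted p 0.597 and 0.197 by edgeR's quasi-likelihood test, described below). All 8 had at least 1 UMI in 290 members (88.1%) and in 14503 other cells (87.3%), and no cell type that should lack them was at hand to give the share from free RNA. Of the 8 mast cell and granulocyte precursor markers, all 8 were at 0 UMIs in members without LPS, and the summed erythroid and megakaryocyte markers reached at most 2.05 CPM (UMI counts scaled to a total of 1000000). The 8 monocyte markers summed to 324 to 596 CPM in members and 471 to 557 in other cells without LPS, and to 1176 to 1633 against 1358 to 1444 with LPS. Single monocyte markers were called lower: VCAN without LPS, at 0 to 2.05 CPM (1 UMI in members) against 7.79 to 16.0, and with LPS LYZ (-0.30 ± 0.07) and S100A8 (-0.18 ± 0.05). Of the 3 endothelial and fibroblast markers tested with LPS, PECAM1 was higher (0.36 ± 0.09) and COL1A1 lower, with 0 UMIs in members. Leaving out 1 culture ended the calls of LYZ (SemaLPS replicate 2), S100A8 (LPS replicate 1 or 3 or SemaLPS replicate 2) and PECAM1 (LPS replicate 3). The 8 markers of plasmacytoid dendritic cells, which are strong interferon producers, summed to 139 to 251 CPM against 138 to 159 without LPS and to 173 to 223 against 144 to 169 with LPS. Most of that sum was TCF4, a factor that many cell types express, which was at 150 to 209 CPM in members with LPS against 130 to 157 in other cells (log2 fold change 0.31 ± 0.05). Of the defining markers, CLEC4C and GZMB were at 0 UMIs in members at both LPS levels and LILRA4 reached at most 7.96 CPM.

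Depth and mitochondrial share were close to those of the other cells. Over the 12 cultures, the median total UMIs of members exceeded that of other cells by 0.03 on the log2 scale (SD 0.09, exact sign-flip permutation test, two-sided, p = 0.203). The mitochondrial share differed by 0.0244 percentage points (SD 0.394, p = 0.823 by the same exact test). Members had 0.03 more on the log2 scale in genes detected (SD 0.04, exact p = 0.0439, adjusted 0.25). The hashtag antibodies bind CD298 and β2-microglobulin, a protein of the class I complex, and the hashtag UMIs of members were higher in 10 of 12 cultures, by 0.13 on the log2 scale (SD 0.22, exact p = 0.0625, adjusted over the 12 such tests 0.25). A barcode whose top hashtag was under 3 times the next was left out, so kept cells could still hold UMIs of a second hashtag. The median ratio of the top hashtag to the next in other cells with LPS was lowest in LPS replicate 3, at 8.34, against 23.5 to 41.7 in the remaining 5 cultures. Doublets within a culture were not called. Between the 2 libraries 91 barcodes were shared, 1 of them a member.

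The share of interferon-high cells rose with LPS. In Ctrl it was 0.842% (10 of 1188 cells), 0.974% (12 of 1232) and 1.14% (13 of 1144). In Sema it was 0.583% (8 of 1373), 1.27% (16 of 1259) and 0.606% (12 of 1979). In LPS it was 3.08% (45 of 1459), 2.49% (34 of 1368) and 3.33% (43 of 1293). In SemaLPS it was 3.22% (49 of 1522), 2.09% (37 of 1774) and 3.71% (50 of 1346). All 6 cultures with LPS lay above all 6 without, and the conditions with and without semagacestat overlapped at each LPS level. The exact (Clopper-Pearson) 95% interval, which covers counting error only, ran from 0.252 to 1.14% in the lowest culture and from 2.77 to 4.87% in the highest.

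The mean share was 0.902% ± 0.279 (SD, n = 6) without LPS and 2.99% ± 0.595 (SD, n = 6) with LPS, a difference of 2.08 percentage points and a ratio of 3.31. The exact permutation test, two-sided and with labels exchanged within each inhibitor level, gave p = 0.005, the smallest value its 400 arrangements allow. With the rule at 10 per 10000 the difference was 1.20 points, and at 20 it was 0.576 points (exact permutation p = 0.005 in both). Within the vehicle cultures the difference was 1.98 points, and within the semagacestat cultures it was 2.19 points (exact permutation p = 0.1 in both, the smallest that 3 against 3 can reach). Semagacestat moved the share by -0.0613 points over both LPS levels (exact permutation p = 0.82). That was -0.164 points without LPS (p = 0.6) and 0.0415 points with LPS (p = 1.0, both exact), and leaving out 1 culture at a time moved the joint value between -0.238 and 0.169 points. These values do not show that semagacestat leaves the share as it is, since the spread between cultures is larger than the differences.

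**Figure D1:**
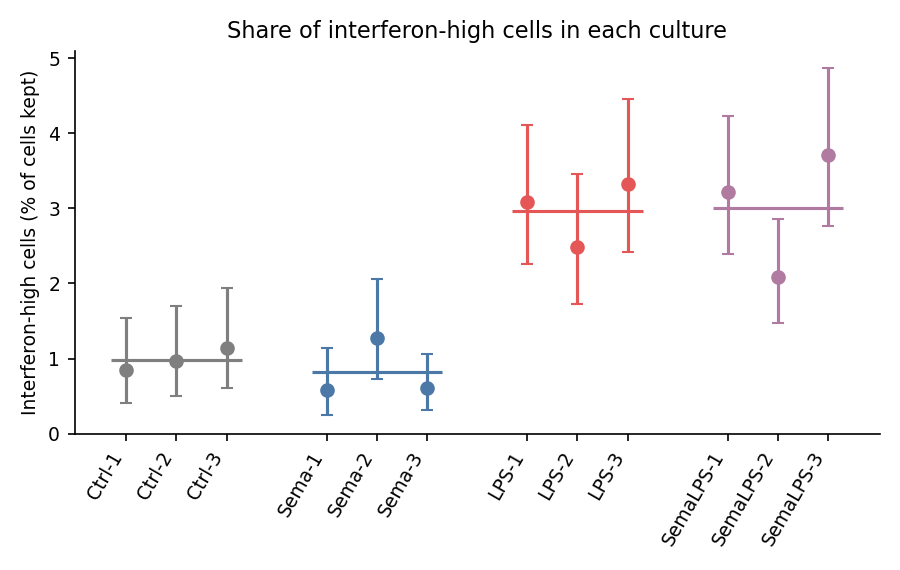
Percent of cells that were interferon-high in each of the 12 cultures (vertical axis, linear from 0), by condition on the horizontal axis; points are cultures with exact 95% intervals. The 6 cultures with LPS sit between 2.09 and 3.71%, all above the 6 without LPS, which sit between 0.583 and 1.27%.

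The rule cut through a continuous tail. Of all cells kept, 57.1% had no UMI of the 10 genes. Just outside the limit, 87 cells (0.514%) lay at 4 to 5 per 10000 UMIs, and just inside, 62 (0.366%) lay at 5 to 6. The median member stood at 9.84 per 10000, 160 members were at 10 or above and 71 at 20 or above. With LPS the median was 10.1 and the highest cell 184, and without LPS they were 7.84 and 79.3. Few members rested on few molecules: 9 had under 10 summed UMIs and 3 had under 5, all of them in cultures with LPS.

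**Figure D2:**
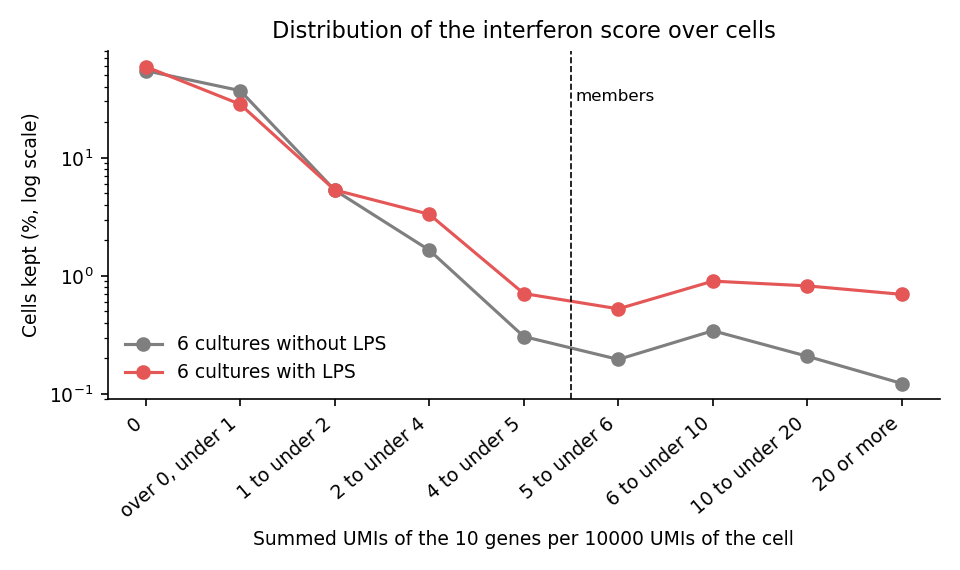
Distribution of the summed UMIs of the 10 rule genes per 10000 UMIs of the cell, without and with LPS, with the limit of 5 per 10000 marked. The tail passes through the limit without a gap, and the highest cell reaches 79.3 per 10000 without LPS and 184 with LPS.

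Because the 10 genes chose the members, their levels are given as a description. IFIT1, IFIT2 and IFIT3 encode cytoplasmic proteins that bind foreign RNA. In pooled cells, IFIT1 was at 300 unscaled CPM in members and 4.58 in other cells without LPS, and 344 against 2.28 with LPS. IFIT2 had 133 against 3.57 without LPS and 259 against 3.27 with LPS, and IFIT3 had 271 against 9.93 and 564 against 12.5. RSAD2 (viperin, which makes a chain-terminating nucleotide) had 35.8 unscaled CPM in members without LPS and 51.1 with LPS, against 0.774 and 0.436 in other cells. CMPK2, its neighbour in the genome, had 50.8 and 51.9 against 2.73 and 2.77. The dynamin-like GTPases MX1 and MX2 had 231 and 201 (MX1) and 100 and 90.9 (MX2), against 4.38 and 5.55 and against 1.48 and 1.85. The OAS-like protein gene OASL had 21.3 and 29.7 against 0.434 and 1.09, and IFI44L had 133 and 96.6 against 1.39 and 2.94. USP18, which removes ISG15 from proteins and dampens IFNAR2 signalling, had 23.2 and 24.7 against 0.778 and 0.510.

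The mix of the 10 genes is also given as a description, in members pooled over cultures with and without LPS. Pooling lets cells with many UMIs weigh more and gives no spread between cultures, so no difference was tested. IFIT3 made up 20.9% of the summed UMIs without LPS and 32.9% with LPS, while IFIT1 made up 23.1% and 20.1%. In other cells IFIT3 made up 33.1% and 37.7%, and IFIT1 15.3% and 6.86%, so both genes moved the same way there. A median of 7 of the 10 genes had a UMI in a member, 128 members (38.9%) had 8 or more and 16 had 3 or fewer. IFIT3 alone had more UMIs than the other 9 genes together in 15.5% of members with LPS and in 5.63% without. IFIT3 was found in 97.2% of members without LPS and 97.3% with LPS, and IFIT1 in 95.8% and 91.9%. RSAD2 was found in 28.2% and 28.7%, and USP18 in 39.4% and 41.1%.

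The rule chose cells by the 10 genes, so a share of those UMIs above the share of cells was fixed in advance. As a description, the members with LPS held most of the cultures' rule-gene mRNA. They were 2.94% of the cells with LPS and held 61.6% of the UMIs of the 10 genes, including 82.5% of those of IFIT1 and 78.5% of those of RSAD2. Without LPS they were 0.87% of the cells and held 26.8%. For genes outside the rule, members with LPS held 74.5% of the UMIs of CXCL11 (55.2 to 95.5% over the cultures), 44.2% of CXCL10 (27.8 to 55.0%), 38.8% of HERC5, 30.5% of TNFSF10 and 24.3% of ISG15. For IFNAR1, the receptor chain, they held 3.12%, near their share of cells.

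Interferon genes themselves were almost never seen. Of 21 interferon ligand genes, those of types I and III with IFNG of type II, members had UMIs of IFNB1 only. There were 15 UMIs in 2 cells, 10 in a cell of SemaLPS replicate 3 with a score of 27.1 per 10000 and 5 in a cell of SemaLPS replicate 1 with a score of 74.7. Other cells had 4 IFNB1 UMIs in 4 cells with LPS and 1 in 1 cell without, as well as 2 UMIs of IFNA1 and 2 of IFNK. A count of 0 in the 71 members without LPS allows up to 1.45 unscaled CPM of each of these genes (3 UMIs over the group). With 2 expressing members, nothing can be said of ligand levels in the members as a class.

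UMIs were then summed per culture over members and over other cells, and compared within culture with edgeR's quasi-likelihood test (Benjamini-Hochberg adjusted p under 0.05 over all genes tested, rule genes not tested). Levels are TMM-scaled CPM, that is, scaled by edgeR's trimmed mean of M-values, given as the lowest, the median and the highest of 6 cultures. Other interferon-induced genes were bound to be high in cells picked on 10 of them, so their folds and calls describe the chosen cells and are no independent support. Without LPS, 177 of 13854 genes were called (1.28%), 95 higher in members (0.686%) and 82 lower (0.592%). With LPS, 790 of 14930 were called (5.29%), 384 higher (2.57%) and 406 lower (2.72%). The falls depended on scaling: with DESeq2's size factors in edgeR the split became 136 higher and 27 lower without LPS, and 472 and 160 with LPS. Calls that held under TMM, under these size factors and among genes with at least 5 UMIs on average in the members' sums, a filter chosen after seeing the data, numbered 81 higher and 10 lower without LPS and 349 and 130 with LPS. Of the 81, 79 (97.5%) were also among the 349 (22.6%). Without LPS the members' sums held only 223660 to 477065 UMIs per culture and the fit used 1 spread for all genes, so that its errors do not carry the larger spread of single genes there. With LPS the sums held 1058249 to 1780313 UMIs.

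Among these calls, the motif of the response element was more frequent before genes that were higher than before all genes tested. It was within 250 bases before the start in 27 of 65 higher genes with a promoter entry without LPS (41.5%), in 44 of 274 with LPS (16.1%), and in 27 of the 63 higher in both (42.9%), against 270 of 10644 genes tested (2.54%). It was in 0 of 8 and 0 of 100 lower genes, numbers too small to set them apart from that 2.54%. Higher genes such as XAF1, HELZ2, CXCL11 and CCL8 had no match in this window.

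The receptor and its kinases did not differ from other cells beyond the spread. IFNAR1 was at 164, 174 and 225 CPM (lowest, median, highest) in members and 174, 182 and 197 in other cells without LPS, a log2 fold change of 0.01 (adjusted p = 0.997). With LPS it was at 229, 240 and 275 against 234, 247 and 254, a log2 fold change of 0.00 (adjusted p = 0.994). The groups overlapped in both. IFNAR2 was at log2 fold changes of -0.08 and -0.07, JAK1 of -0.12 and -0.02, and TYK2 of 0.04 and -0.23, none past the test. Of the 12 receptor and signalling genes, 3 were higher and 0 lower in each comparison, with the transcription factors STAT2 and IRF9 among the higher genes in both. The shares higher over all genes tested were 0.686% without LPS and 2.57% with LPS.

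STAT2 stood at 40.8, 65.7 and 80.9 CPM in members and 24.3, 28.0 and 29.7 in other cells without LPS. With LPS it stood at 58.7, 72.9 and 92.2 against 33.5, 34.9 and 44.3. At each LPS level every culture's members lay above every culture's other cells, with log2 fold changes of 1.17 ± 0.17 (SE) and 1.01 ± 0.07. IRF9 followed with 1.21 ± 0.20 and 0.83 ± 0.08. Both genes were separated without overlap in both comparisons.

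Among the interferon regulatory factors, 2 of 8 tested were higher without LPS and 4 of 8 with LPS, and none was lower. Higher genes made up 0.686% and 2.57% of all genes tested. IRF7, which amplifies interferon production, was at 26.2, 45.8 and 67.7 CPM against 7.35, 7.67 and 8.65 without LPS and at 38.9, 42.2 and 51.7 against 9.05, 9.91 and 12.1 with LPS (log2 fold changes 2.55 ± 0.25 and 2.06 ± 0.11). IRF1, a factor that interferon γ and NF-κB induce, was at 11.7, 18.0 and 23.9 against 11.4, 12.2 and 12.5 without LPS, where it did not pass (0.56, adjusted p = 0.559). With LPS it was at 32.8, 48.9 and 114 against 17.1, 18.3 and 18.5 and did pass (1.58 ± 0.13). Whether these 2 folds differ was tested by the interaction below, which did not call IRF1 and does not show the folds to be equal. IRF3, the latent factor downstream of the sensors, was at log2 fold changes of 0.09 and -0.11 without a call.

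In the list of nucleic acid sensors and their adaptors, 8 of 19 genes tested were higher without LPS and 13 of 19 with LPS, with none lower. Of all genes tested, 0.686% and 2.57% were higher. The medians of the list were 0.48 and 0.71 on the log2 scale, against -0.09 and -0.03 over all genes tested. DDX58, which encodes the RNA helicase RIG-I, was at 49.6, 64.8 and 71.7 CPM against 5.35, 5.95 and 6.51 without LPS and at 56.3, 77.2 and 87.7 against 6.27, 7.23 and 7.88 with LPS (3.38 ± 0.24 and 3.36 ± 0.10). IFIH1 (MDA5) was at 64.1, 92.6 and 108 against 21.9, 23.8 and 25.2, and at 134, 157 and 176 against 36.2, 41.0 and 43.7 with LPS (1.94 ± 0.16 and 1.92 ± 0.07). The folds of both sensors differed between LPS levels by less than their errors, while IFIH1 stood at higher levels with LPS on both sides. EIF2AK2 (PKR), which stops translation on double-stranded RNA, had folds of 1.98 ± 0.11 and 1.95 ± 0.06.

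Antiviral effectors were raised across most of the list: 37 of 54 tested were higher without LPS and 53 of 56 with LPS, none was lower, and the medians were 1.41 and 1.67. Across all genes tested 0.686% and 2.57% were higher. ISG15 was at 281, 587 and 745 CPM in members and 37.3, 37.9 and 52.4 in other cells without LPS (log2 fold change 3.70 ± 0.10). With LPS it was at 363, 387 and 644 against 31.1, 35.0 and 109 (3.38 ± 0.08). OAS2, which makes the activator of RNase L, was at 29.1, 84.2 and 102 against 2.40, 2.74 and 3.66 without LPS and at 40.7, 57.7 and 68.8 against 2.39, 2.81 and 5.17 with LPS (4.64 ± 0.27 and 4.17 ± 0.15). HERC5 was at 45.8, 81.7 and 115 against 6.03, 7.10 and 8.68, and at 51.5, 72.9 and 90.8 against 3.06, 3.40 and 4.38 (3.52 ± 0.22 and 4.32 ± 0.13). In none of these did a culture's members reach down to the other cells of any culture. XAF1, a pro-apoptotic partner of XIAP, had folds of 4.16 ± 0.30 and 3.43 ± 0.15, and the transcriptional coactivator HELZ2 of 4.78 ± 0.39 and 4.05 ± 0.20.

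In 1 culture, LPS replicate 3, some interferon-induced genes were higher outside the members. Its hashtag was the weakest of the 6 cultures with LPS, at a median of 309 UMIs in its other cells against 917 to 1637, and whether this had a part in the levels was not tested. The other cells there had ISG15 at 109 CPM against 31.1 to 37.1 in the remaining 5 cultures with LPS, and IFI6, a protein that limits apoptosis and flavivirus replication, at 177 against 28.7 to 37.5. That culture was the highest of 6 for 22 of 39 antiviral effectors in other cells and for 22 of 52 in members, but the median ratio of these genes to the remaining cultures was only 1.11 and 1.13. Its members had IFI6 at 356 CPM against 128 to 203 in the rest, so the sides of IFI6 overlapped between cultures with LPS although members exceeded the other cells in all 6. Its share of members, 3.33%, was within the range of the other cultures with LPS, and without it 634 genes were called in place of 790.

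**Figure D3:**
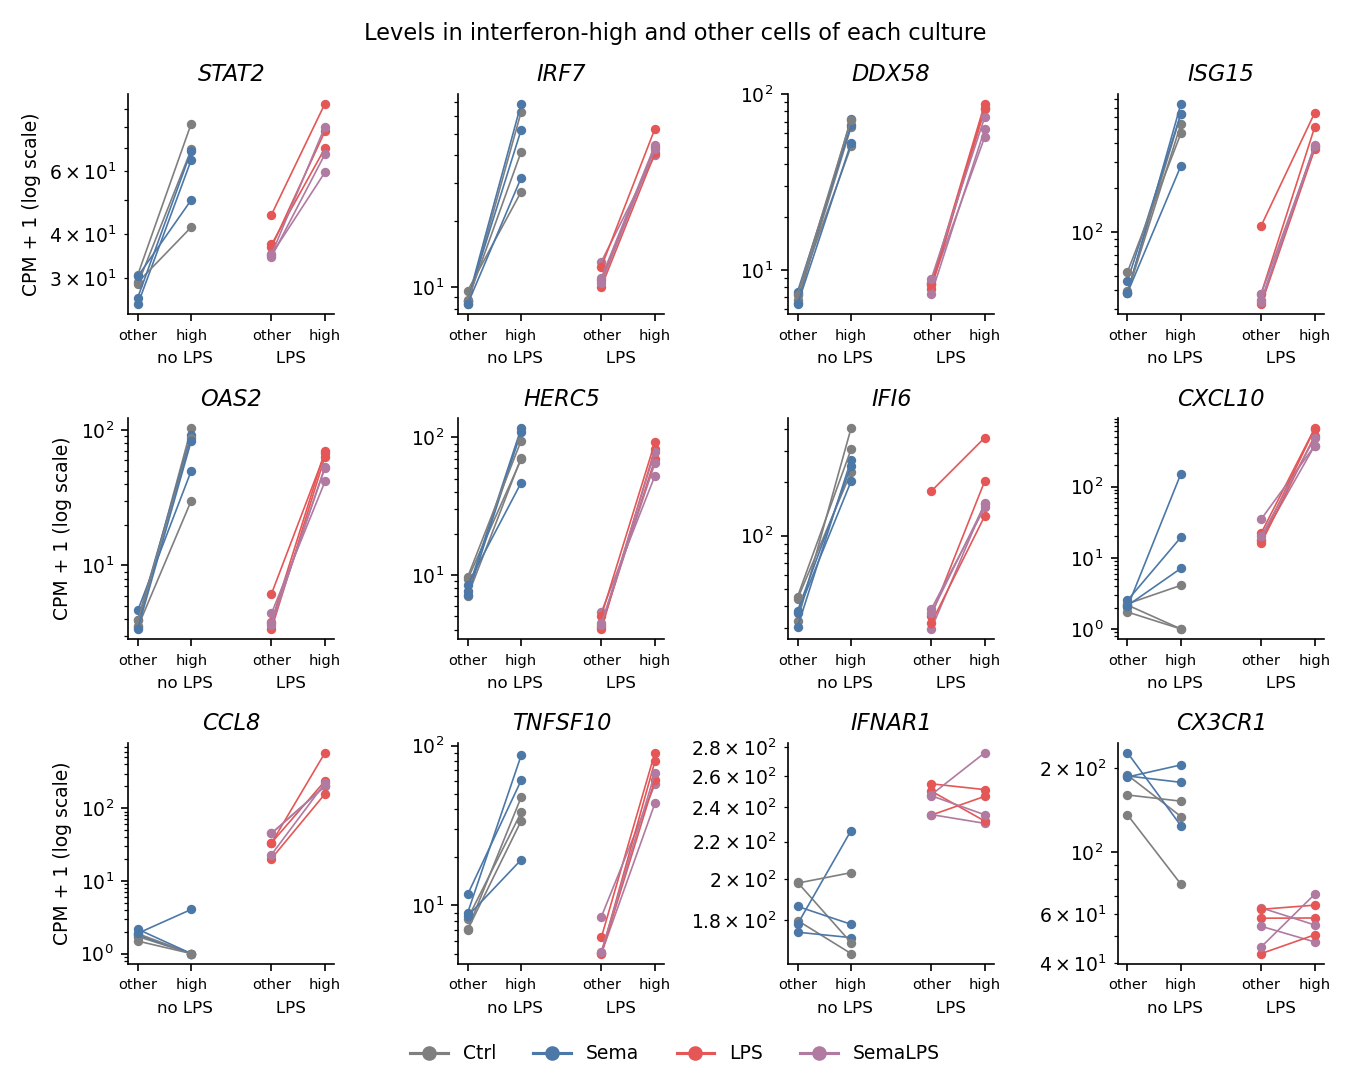
TMM-scaled CPM plus 1 (log axis) of 12 genes in other cells ("other") and interferon-high cells ("high") of each culture, without and with LPS; lines join the 2 sides of a culture and colours give the condition. ISG15, OAS2, HERC5, DDX58, IRF7 and STAT2 are separated in all 12 cultures, CXCL10 and CCL8 in all 6 cultures with LPS but not without, and IFNAR1 is not separated.

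In the list of feedback inhibitors, 3 of 9 genes were higher without LPS and 5 of 9 with LPS, against 0.686% and 2.57% of all genes tested. UBE2L6, the conjugating enzyme for ISG15 and not itself an inhibitor, had folds of 1.29 ± 0.13 and 1.02 ± 0.07. SOCS1, which blocks JAK kinases, was at 0, 1.53 and 5.06 CPM against 0.548, 0.867 and 1.17 without LPS and did not pass there (4 UMIs in members). With LPS it was at 3.54, 9.35 and 21.0 against 4.61, 5.00 and 6.03, higher in 5 of 6 cultures (1.04 ± 0.22, adjusted p = 0.00105). SOCS3, the inhibitor of STAT3 signalling, did not pass in either (-0.14 and -0.19). Guanylate-binding proteins, known best as targets of interferon γ, were barely measurable: GBP1 had 61 UMIs in members with LPS, at 1.20, 4.47 and 18.9 CPM against 0.473, 0.650 and 0.746 (3.26 ± 0.38).

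Chemokines marked the members with LPS. CXCL10, which attracts T cells through CXCR3, was at 373, 499 and 659 CPM in members and 15.1, 18.0 and 33.9 in other cells, a fold of 25.1 (log2 4.65 ± 0.11), with no overlap. CXCL11, which binds the same receptor, was at 9.59, 17.0 and 29.2 against 0.0250, 0.169 and 0.283 (6.52 ± 0.32). The monocyte attractant CCL8 was at 157, 211 and 579 against 19.3, 32.3 and 44.1 (2.98 ± 0.12), and CCL2, which attracts monocytes through CCR2, was at 1258, 1613 and 1829 against 496, 814 and 954 (1.04 ± 0.04). Of the 14 chemokine and cytokine genes tested, 7 were higher with LPS and none lower, with a median of 1.34. Among all genes tested with LPS, 2.57% were higher.

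Without LPS, 3 of these chemokines had few UMIs in the members, while CCL2 was well detected on both sides. Members had CXCL10 at 3.10, 0 and 0 CPM in Ctrl replicates 1, 2 and 3 and at 151, 18.4 and 6.11 in Sema replicates 1, 2 and 3, so that its call (4.00 on the log2 scale) rests on few cells: 7 of 71 members had a UMI. In library 2 alone the value was -0.02. CCL8 had 1 UMI in members without LPS, and CXCL11 had 5 in 1 culture. CCL2 was at 30.7, 49.2 and 195 CPM against 56.3, 59.4 and 80.3, with overlap and no call (0.19, adjusted p = 0.718). The membership by LPS interaction called CCL2 (0.78, adjusted p = 0.00626), a call lost when Sema replicate 2 or 3 was left out, and of these 4 genes it called no other. With the rule at 10 per 10000 the CCL2 interaction was -0.03 (adjusted p = 0.99).

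With LPS, CXCL10 had a UMI in 181 of 258 members (70.2%) and in 1830 of 8504 other cells (21.5%), at median depths of 32409.5 and 31477.5 UMIs. In other cells without LPS it had one in 214 of 8104 (2.64%), at a median depth of 28463 UMIs. These shares count cells with a UMI, and a cell without one may still express the gene. The median member had 3 CXCL10 UMIs and the highest 266. The cytokine ligands TNFSF10 and TNFSF13B were higher in members at both LPS levels. TNFSF10 was at 18.3, 41.9 and 86.0 CPM against 6.06, 7.42 and 10.7 without LPS and at 42.6, 63.1 and 89.4 against 4.00, 4.08 and 7.52 with LPS (2.61 ± 0.26 and 3.76 ± 0.14). The B-cell survival factor TNFSF13B (BAFF) was at 58.0, 89.4 and 119 against 29.7, 31.6 and 37.6, and at 91.1, 122 and 152 against 46.1, 55.0 and 60.5 (1.46 ± 0.15 and 1.19 ± 0.06).

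Within the members, several of these genes stood higher at higher scores, while others did not. Cells were pooled over the 6 cultures with LPS for this description, which carries no test because the score is the rule's own. CXCL10 was at 20.3 unscaled CPM in other cells, 120 in the 125 members at 5 to 10 per 10000, 345 in the 72 members at 10 to 20 and 1527 in the 61 at 20 or above, and 55.2%, 73.6% and 96.7% of these members had a UMI. CCL8 ran from 32.8 to 81.8, 141 and 751, TNFSF10 from 4.78 to 11.7, 34.5 and 221, and ISG15 from 44.2 to 287, 427 and 826. CCL2 stood at 766 in other cells and at 1363, 1367 and 2353 in the members. The neutrophil attractant CXCL8, an NF-κB gene, ran the other way, from 1052 to 993, 964 and 713. Without LPS, ISG15 ran from 39.3 to 335, 823 and 1311 and TNFSF10 from 7.40 to 16.0, 43.0 and 232, over bands of 44, 17 and 10 members. CXCL10 ran from 1.10 to 1.46, 4.77 and 167 there, with 36 of the 46 UMIs of the highest band in 1 cell. CCL8 had 1 UMI in all 71 members there, too few to compare bands: 0 UMIs in the 10 cells of the highest band allow up to 10.9 unscaled CPM (3 UMIs), against 0.806 in other cells.

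**Figure D4:**
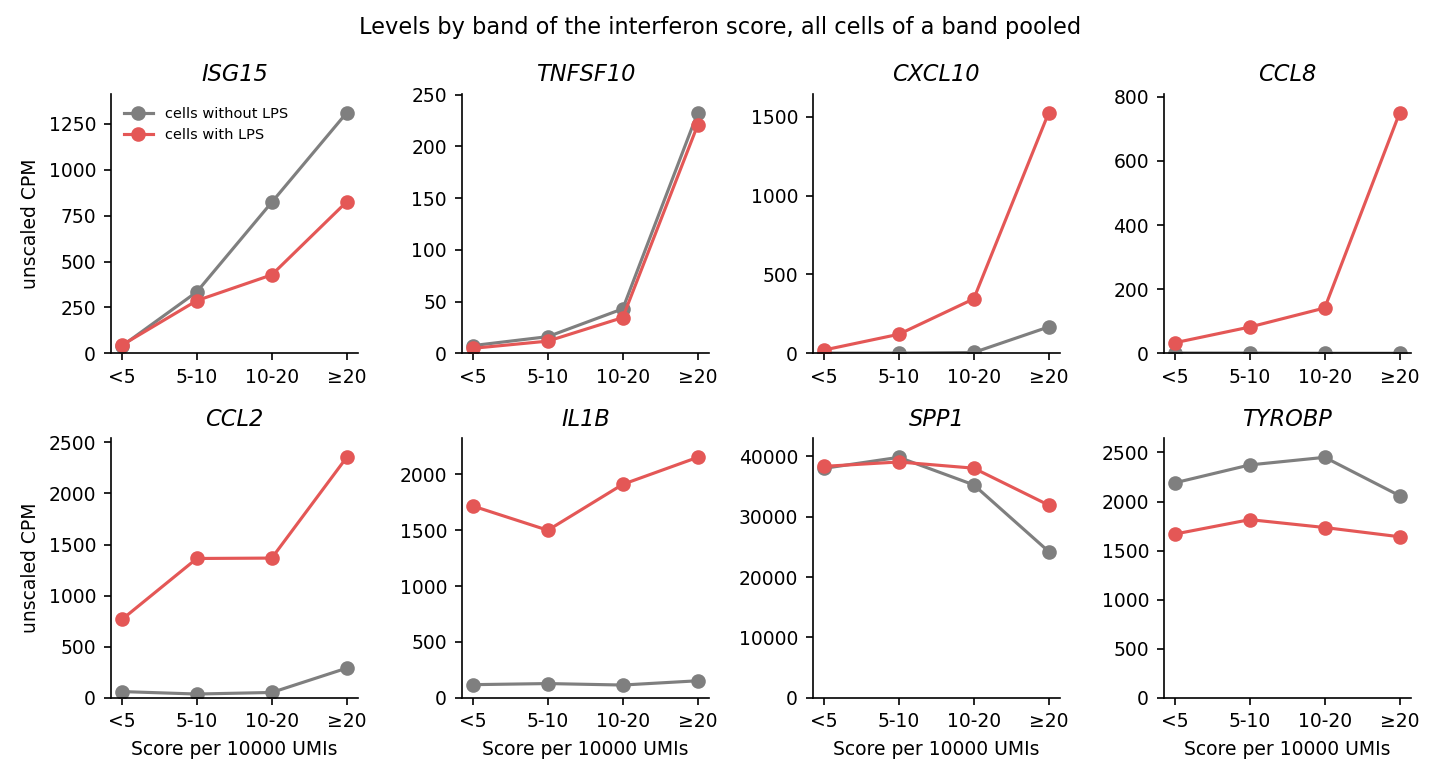
Unscaled CPM (vertical axis, linear from 0 in each panel) in other cells and in interferon-high cells of 3 score bands, cells pooled over cultures without and with LPS. With LPS, CXCL10 and CCL8 reach 1527 and 751 in the highest band, against 167 and 0 without LPS (0 UMIs of CCL8 in 10 cells), while ISG15 and TNFSF10 stand highest in that band at both LPS levels.

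Antigen presentation genes shifted in part. Of 17 class I genes tested without LPS 3 were higher, and of 18 with LPS 6 were, with none lower. Over all genes tested, 0.686% and 2.57% were higher. The class I medians were 0.35 and 0.13, against -0.09 and -0.03 over all genes. The immunoproteasome subunit PSMB9 was at 21.4, 27.2 and 83.6 CPM against 6.77, 7.52 and 9.06 without LPS and at 16.2, 26.1 and 37.7 against 11.4, 14.0 and 14.4 with LPS (2.15 ± 0.28 and 0.94 ± 0.14). The peptide transporter TAP1 was at 56.5, 73.6 and 78.5 against 35.7, 36.5 and 38.7 with LPS (0.90 ± 0.08). B2M, the light chain, lay above the other cells in all 6 cultures without LPS, at 2421 to 2906 against 2235 to 2387 CPM, but did not pass (0.19, adjusted p = 0.151). Single class II genes went the other way without LPS, with 0 of 11 higher and 3 lower, against 0.592% lower over all genes tested. Only HLA-DRB5 was among the 10 lower genes that held under all 3 settings. The summed class II genes overlapped, at 513 to 1458 CPM in members against 1010 to 1324 in other cells, so the class as a whole is not shown to be lower. HLA-DRB5 was at 20.2, 36.7 and 58.3 against 60.1, 79.9 and 92.3, below in all 6 cultures with no overlap (-1.01 ± 0.16), and its reads can be split with those of its near-identical HLA-DRB1. HLA-DRA was at 48.0, 63.8 and 211 against 110, 145 and 165, higher in 2 of 6 cultures, and its call was lost under 3 of 4 other fits. With LPS no class II gene was called.

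As a list, genes of the NF-κB response did not follow the interferon genes. Of 30 tested with LPS, 4 were higher and 3 lower in members, at a median of 0.01. Over all genes tested, 2.57% were higher and 2.72% lower, so genes of the list were called more often in both directions. The 3 genes named next are not among the 4 higher ones, so they do not stand for the whole list. IL1B, the gene of interleukin 1β, was at 1346, 1817 and 2104 CPM against 1375, 1734 and 2249 (0.01, adjusted p = 0.985). TNF was at 117, 136 and 269 against 96.5, 151 and 178 (0.16, adjusted p = 0.278). CXCL8 was lower in 5 of 6 cultures at 758, 915 and 1127 against 963, 1043 and 1221 (-0.23 ± 0.05), a call that was lost under 3 of 4 other fits.

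Microglial identity genes had list medians near 0, although single genes were called. No homeostatic gene of 22 passed without LPS, and 3 were higher with LPS, where 2.57% of all genes tested were higher. The homeostatic medians were -0.02 and 0.06. Of 19 disease-associated genes, 1 was higher and 1 lower without LPS, and 4 were higher and 4 lower with LPS. Their medians were -0.03 and 0.02. Over all genes tested, 1.28% were called without LPS and 5.29% with LPS. CX3CR1, the fractalkine receptor, was at 75.8, 142 and 205 CPM against 135, 186 and 227 without LPS (-0.31, adjusted p = 0.17) and at 46.7, 55.5 and 69.8 against 42.4, 55.2 and 62.3 with LPS (0.10, adjusted p = 0.647). TREM2, a lipid receptor, was at log2 fold changes of -0.08 and 0.00. AXL, a phagocytic receptor of the TAM family, was at 60.7, 117 and 135 against 70.8, 74.9 and 76.6 without LPS (0.53 ± 0.13) and at 51.1, 62.2 and 68.1 against 35.3, 40.9 and 43.7 with LPS (0.58 ± 0.07), separated without overlap only with LPS. Without LPS, the AXL call was lost when Sema replicate 2 or 3 was left out. Its relative MERTK was at 15, 20.0 and 21.1 against 11.1, 12.7 and 15.6 with LPS (0.55 ± 0.13).

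Proliferation genes were lower in members with LPS. Of 22 cell cycle genes, 11 were lower and 0 higher, at a median of -0.46 against -0.03 over all genes, where 2.72% were lower. These counts are from the fit with TMM, and the number of falls depended on scaling. UBE2C, a ubiquitin conjugating enzyme of mitotic exit, was at 6.99, 16.1 and 35.3 CPM against 26.4, 34.6 and 53.2, lower in all 6 cultures (-1.14 ± 0.13). CENPF, a kinetochore protein, was lower in all 6 at -0.85 ± 0.12, and MKI67 in all 6 at -0.68 ± 0.13, although the MKI67 call was lost under 2 of 4 other fits. Without LPS 4 of 22 were lower, but none of these was among the 10 lower genes that held under all 3 settings. The cultures also disagreed: MKI67 was at 171 CPM in the members of Ctrl replicate 1 and at 87.6 in those of Sema replicate 1. Both lay above their own other cells (84.8 and 81.2), and the members of the remaining 4 cultures were at 0 to 21.4.

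Single genes outside the cell cycle list were also lower, and they are named without a claim for any group. FN1, fibronectin, was at 1.67, 9.23 and 18.0 CPM in members with LPS and 23.9, 28.3 and 33.8 in other cells, with no overlap (-1.51 ± 0.16, adjusted p = 7.37e-10). GAL, the neuropeptide galanin, was at 4.42, 6.05 and 10.8 against 13.2, 20.3 and 27.9 with LPS (-1.42 ± 0.16) and at 2.05, 3.08 and 10.1 against 10.6, 17.9 and 45.0 without LPS (-2.32 ± 0.41, from 9 UMIs in members). Of the 10 genes lower without LPS under all 3 settings, FCGBP, which encodes a mucin-like secreted protein, was at 21.7, 32.6 and 84.5 against 82.1, 90.0 and 103 (-1.20 ± 0.16), while with LPS it was higher in all 6 cultures (0.47 ± 0.08). The chitinase-like CHI3L1 was lower in all 6 cultures without LPS at 64.1, 137 and 265 against 191, 280 and 411 (-0.99 ± 0.11). The matrix protease MMP7 was at 5.83 to 21.4 CPM in the members of 5 cultures and at 273 in those of Ctrl replicate 3, where the other cells had 275, so its log2 fold change of -2.0 combines 5 cultures far below with 1 that was level. With LPS, MMP7 was not called (-0.24, adjusted p = 0.443).

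The size of the difference between members and other cells was then compared between LPS levels in 1 fit over all 12 cultures. Of 15637 genes, 12 were called (0.0767%), 6 with a larger and 6 with a smaller value with LPS (0.0384% each). In simulated counts this test recovered 25 of 97 changes of 2-fold and 48 of 96 of 4-fold. Among genes with at least 20 CPM on average it recovered 23 of 28 and 29 of 29. A gene that was not called is therefore not shown to have equal folds at the 2 LPS levels. Of the 81 calls in these simulated counts, 8 fell on genes that had not been changed, so some of the 12 calls may be false. PLSCR1, a phospholipid scramblase that blocks viral fusion, was at 224 ± 39.2 CPM (SD, n = 6) in members and 93.8 ± 7.50 in other cells without LPS, and at 282 ± 26.1 against 222 ± 15.4 with LPS (interaction -0.96, adjusted p = 2.29e-10). TYMP, thymidine phosphorylase, was at 249 ± 29.2 against 160 ± 9.30 without LPS and at 422 ± 26.9 against 423 ± 24 with LPS (-0.68, adjusted p = 5.22e-06). In both, the levels of the other cells with LPS were near or at those of the members. FCGBP was below the other cells in all 6 cultures without LPS (39.8 against 90.6 CPM), and with LPS its mean was 110 against 79.2. IL1RN, the interleukin 1 receptor antagonist, was at 18.1 against 46.8 CPM without LPS, lower in all 6 cultures. With LPS its cultures were split: the members were at 530 against 310 in LPS replicate 3 but below the other cells in LPS replicate 1 (245 against 274) and SemaLPS replicate 3 (188 against 207). The IL1RN interaction (1.53) became 0.79 in library 1 alone (adjusted p = 0.757) and 1.54 with the rule at 10 (adjusted p = 0.183). TRIM56, a ubiquitin ligase of antiviral signalling, was at 38.3 against 28.6 without LPS and at 52.9 against 21.1 with LPS. PLSCR1, TYMP, FCGBP, IL1RN and IFI6 kept their call whichever culture was left out, and the other 7 lost it without at least 1 of the cultures. These 5 did not all hold under other fits. With at least 5 UMIs on average in members, edgeR called 1 gene with a larger value with LPS and 2 with a smaller one. With that filter limma-voom called 0 larger and 2 smaller, so FCGBP and IL1RN were not called there.

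**Figure D5:**
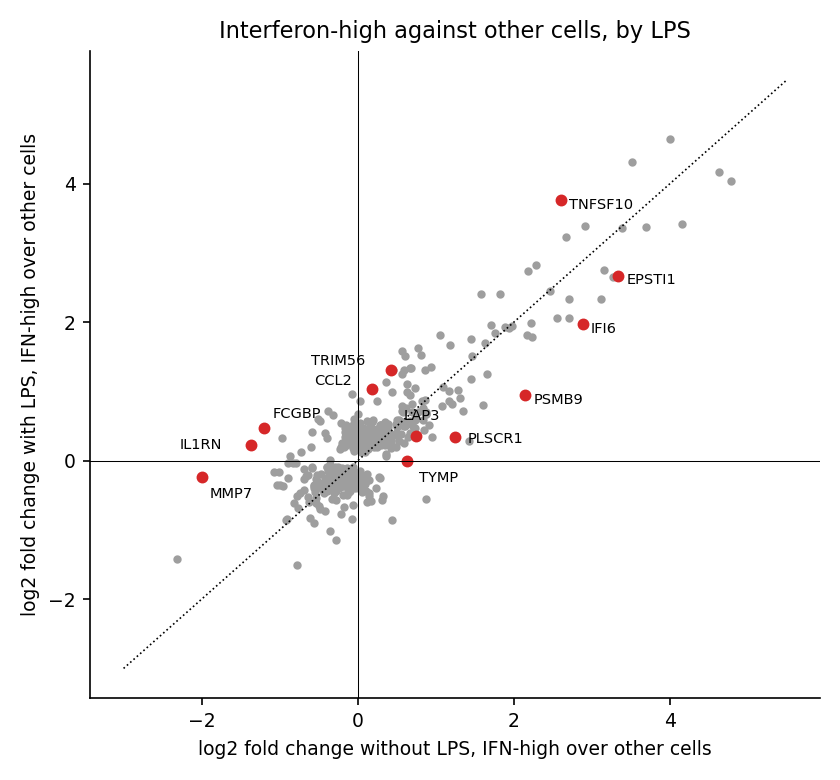
Log2 fold change of interferon-high over other cells without LPS (horizontal) and with LPS (vertical) for 687 genes called in at least 1 of the comparisons, with at least 20 CPM on 1 side and at least 5 UMIs in members at each LPS level; red marks the 12 genes whose difference between LPS levels was called. Most points lie near the dotted line of equal folds, and PSMB9, IFI6, EPSTI1, PLSCR1 and TYMP lie below it.

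LPS changed the members, and the other cells shifted as well. In sums over members only, with the inhibitor as a covariate, 1626 of 7241 genes differed between LPS levels (22.5%), 810 higher (11.2%) and 816 lower (11.3%) with LPS. All 23 of the 23 NF-κB genes tested were higher, at a median of 3.71 on the log2 scale against -0.01 over all genes. This rise was not particular to members. In other cells the 30 listed NF-κB genes summed to 1240 to 1482 CPM without LPS and 14448 to 18228 with LPS, each LPS level scaled on its own. The interaction above called 0 of these 30 genes. CXCL8 was at 999 ± 171 CPM (SD, n = 6) with LPS and 30.0 ± 8.49 without (5.11 ± 0.17), IL1B at 1903 ± 320 and 134 ± 51.7 (3.88 ± 0.18), and the NF-κB inhibitor NFKBIA at 555 ± 132 and 81.6 ± 35.4 (2.83 ± 0.18). CCL2 was at 1695 ± 259 and 84.4 ± 69.4 (4.48 ± 0.25). CH25H, which makes an antiviral oxysterol, had 529 UMIs in members with LPS and 0 without, at least 41.5-fold higher against a floor of 3 UMIs over the group. None of these pairs of groups overlapped.

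Homeostatic genes fell in the members with LPS: 13 of 20 tested were lower and 2 higher, at a median of -0.90. Over all genes tested, 11.3% were lower and 11.2% higher. Other cells shifted the same way: their 23 listed homeostatic genes summed to 8929 to 9624 CPM without LPS and 7099 to 7879 with LPS. GPR34, a lysophosphatidylserine receptor of microglia, was at 60 ± 9.46 CPM with LPS and 273 ± 52.8 without (-2.19 ± 0.13). MEF2C, a transcription factor of microglial homeostasis, was at 178 ± 22.9 and 526 ± 75 (-1.56 ± 0.11), and the growth factor receptor CSF1R at 108 ± 15.2 and 217 ± 42.9 (-1.03 ± 0.13). Of 50 antiviral effectors tested, 8 were higher and 10 lower with LPS, at a median of -0.10. Members at both LPS levels had passed the same limit on interferon-induced genes, so the rule itself holds these levels near each other. IFIH1 (0.85 ± 0.13) and IRF1 (1.71 ± 0.30) were higher with LPS.

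Semagacestat had no detected effect within the members. Of the same 7241 genes, 0 were called by edgeR's quasi-likelihood test and 250 had an unadjusted p under 0.05. DESeq2's Wald test also called 0, with 156 at an unadjusted p under 0.05. ISG15 differed by -0.21 ± 0.17 on the log2 scale, IRF7 by -0.03 ± 0.17 and CXCL10 by -0.22 ± 0.37 (SE). IRF1 (0.74 ± 0.23) and IFI6 (-0.53 ± 0.18) had unadjusted p of 0.00479 and 0.00895 and adjusted p of 0.9997. These values do not show that members with and without semagacestat are alike.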

How the data were processed

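The deposited matrices of 2 droplet libraries held whole-number UMI counts for genes and hashtags (36601 genes, 28943 barcodes). Cell Ranger 6.0.1 stands per the file headers, and Cell Ranger 3.0.2, Seurat 4.1.1 and the build hg38 stand per the submitters' processing notes. A cell was kept when its top hashtag had at least 30 UMIs and 3 times the next (24662 barcodes), had 1000 or more detected genes (24305) and no more than 10% of its UMIs from mitochondrial genes (16937); its hashtag gave its culture per the labels. No doublet caller was run.

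Counts were summed per culture and membership and tested in R 4.3.3 with edgeR 4.0.16 (quasi-likelihood test, TMM, filterByExpr, culture as block for members against other cells), with Benjamini-Hochberg adjustment over all genes tested. A standard error (SE) was taken as the size of a log2 fold change over the square root of its F. Shares were tested by exact permutation over cultures (scipy 1.17.1). The labels do not say what a replicate number stands for. Cultures with the same number deviated together in sums over other cells (18 of 18 correlations over 0.1, median 0.568 against -0.397 for other numbers, 12 of 12 cultures best with their own number) and less firmly in members' sums (12 of 18, median 0.137, 10 of 12). DESeq2 1.42.0 and limma 3.58.1 served as alternatives, and the edgeR fits were tested on simulated counts. The members, the rule and the 31 gene lists were chosen with earlier results of these data known. Named genes were the 15 largest rises and 10 largest falls past the threshold with at least 20 CPM and the same direction in every culture, the 5 largest each way for the other comparisons, up to 5 genes per list by adjusted p, and every receptor and signalling gene; 1 of these is not reported here. TNF, TREM2, the microglia and other cell type markers quoted singly and genes quoted in score bands were added after their values were seen. Promoter sequences are from RefSeq, assembly GRCh38.p14; IFIT2, MX2, OASL and USP18 had no entry.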

Additional observations from a re-analysis of the deposited data

Results flagged for a closer look

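The difference between interferon-high and other cells changed with LPS in 12 genes by a test of the interaction itself (edgeR's quasi-likelihood test, log2 scale, adjusted over 15637 genes). The value was lower with LPS for PSMB9 (-1.27, adjusted p = 0.0201), PLSCR1 (-0.96, adjusted p = 2.29e-10), IFI6 (-0.95, adjusted p = 5.01e-05), EPSTI1 (-0.71, adjusted p = 0.0201), TYMP (-0.68, adjusted p = 5.22e-06) and LAP3 (-0.45, adjusted p = 0.0229). It was higher with LPS for FCGBP (1.60, adjusted p = 4.42e-09), IL1RN (1.53, adjusted p = 2.49e-05), MMP7 (1.51, adjusted p = 0.0224), TNFSF10 (1.06, adjusted p = 0.0406), TRIM56 (0.84, adjusted p = 0.0416) and CCL2 (0.78, adjusted p = 0.00626, but -0.03 with the rule at 10 per 10000). For PLSCR1, TYMP and LAP3 the other cells with LPS stood at 222, 423 and 328 CPM against 93.8, 160 and 196 without. The MMP7 value without LPS rests on 5 of 6 cultures, since the members of Ctrl replicate 3 were level with their other cells. Limma-voom on genes with at least 5 UMIs on average in members called 0 genes with a higher value with LPS, so FCGBP and IL1RN were not called there.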

How the results depend on the processing

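The LPS difference in the share kept its direction and stayed past the threshold under every alternative run, at 1.91 to 2.31 points without 1 culture, 1.20 with the rule at 10 per 10000 and 0.576 at 20. Semagacestat's -0.0613 points became 0.0481 in library 2 alone, 0.113 at up to 20% mitochondrial UMIs, and ranged from -0.238 to 0.169 without 1 culture. Genes called against other cells without LPS (177) became 113 with the rule at 10 per 10000, 98 in library 2 (both on 4 cultures), 103 by DESeq2's Wald test, 1689 by limma-voom with a weight for each side, 97 with at least 5 UMIs on average in members and 102 by limma-voom with that filter. With LPS (790) they became 404 and 226 in libraries 1 and 2, 484 by the Wald test and 1574 by limma-voom. The 12 interaction calls became 41 with the rule at 10, 4 by the Wald test, 51 without a filter on low counts, 944 by limma-voom, 3 and 2 with the filter of 5 UMIs in edgeR and limma-voom, and 9 to 25 without 1 culture (25 without SemaLPS replicate 1, 22 without Ctrl replicate 3, 20 without Ctrl replicate 2). The limma-voom fits and the filter of 5 UMIs were added after seeing the data. The LPS effect within members (1626) became 705 with the rule at 10, and 936 and 974 in libraries 1 and 2. The semagacestat effect (0) became 31 without a filter and 0 to 1 without 1 culture (1 without SemaLPS replicate 2). CXCL10 without LPS was -0.019 in library 2 alone, and with the rule at 10 the interactions of CCL2 and S100A8 (0.11) were -0.028 and -0.95. The cause of these changes was not tested. The rule at 20 was not run for 4 of the comparisons, since too few cultures held 5 members.

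With a replicate block the share's exact permutation p was 0.0313 for LPS, the smallest of its arrangements, and 0.719 for semagacestat. As without the block, the LPS difference in the share was past the threshold and the semagacestat difference was not. The blocked fits within members called 1728 and 0 genes, against 1626 and 0 without the block. Depth limits the comparison without LPS, where 71 members gave the sums.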
